A study of Mus musculus with 12 samples.

Results

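Integrins and cell adhesion molecules were followed in macrophages (Mφ) sorted from mouse hearts, through 10 of the 24445 gene symbols counted: the integrin chains Itgam, Itgax, Itgal, Itga4, Itga6, Itgb2 and Itgb7, the immunoglobulin-family molecules Vcam1 and Icam1, and Amica1, which current annotations name Jaml. These genes were selected from the normalized counts of the same 12 libraries, with their group differences already seen, so every difference between groups given for them is a description and no test of it is independent of the choice. All 10 passed the filter on low counts, and 14608 genes were tested in all.

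RNA came from adult male C57BL6/J mice with 4 mice, and 1 library a mouse, in each of 3 groups. ECH mice, with early concentric hypertrophy, had received the β-adrenergic agonist isoproterenol (iso) from an implanted pump at 30 mg/kg/day for 14 days, and HF mice, with heart failure, had been treated likewise for 28 days. Controls (Ct) had saline in the pump, for 14 or 28 days, and no source states which applied to which mouse. Leukocytes were enriched with beads against CD45, gated on CD11b and sorted as CD14+/CD64+ cells, so the product of Itgam, CD11b, was itself used to choose the cells.

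Library totals lay between 88466559 and 111180291 counts. The 12 macrophage markers checked summed to between 34745 and 48157 CPM (counts relative to library size, scaled by edgeR's TMM method) and none was at 0. They include Cd14 and Fcgr1, the genes of CD14 and CD64, on which the cells were sorted. The sums are therefore no independent check of the labelled cell type. Numbers in the labels place ECH libraries 1 and 2 beside Ct (here set A) and ECH libraries 3 and 4 beside HF (set B), although no source states that these sets were handled apart. Another code in the labels, which no source explains, does not follow this split. In its order ECH libraries 3 and 4 stand next to Ct libraries 3 and 4, and ECH libraries 1 and 2 stand between HF libraries 2 and 3. With all Ct libraries in set A and all HF libraries in set B, HF against Ct cannot be told apart from the set. With the set as a covariate, the set effect is taken only from ECH libraries 1 and 2 against ECH libraries 3 and 4. The HF against Ct values of that fit rest on this gap within ECH. Ct library 2 and HF library 1 had the fewest genes detected, 14489 and 13600, against 15054 to 15940 in the other libraries. Since RNA was measured in bulk, a larger share of cells carrying a transcript and more transcript per cell cannot be told apart.

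Integrins are receptors of 1 α and 1 β chain each, which hold cells to matrix proteins and to each other and which are switched from a resting to an active state from inside the cell. Leukocytes are known for the β2 integrins, in which Itgb2 (CD18) pairs with Itgal (LFA-1), Itgam (Mac-1, complement receptor type 3) or Itgax (complement receptor type 4), and for the α4 integrins, in which Itga4 pairs with Itgb1 (VLA-4) or Itgb7. Their counter-receptors include ICAM1 for β2 integrins and VCAM1 for α4β1, both best known from activated endothelium, while AMICA1 binds CXADR at cell junctions and Itga6 is a laminin-binding chain.

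Compared per kilobase of exon, so that genes of different length share a scale, Itgb2 was the highest member in every group, at 134 ± 48.4 CPM per kb (SD, n = 4) in Ct, 216 ± 11.2 in ECH and 209 ± 26.9 in HF. In Ct the next were Icam1 at 80.5 ± 26.1 and Itgam at 74.3 ± 28.7 CPM per kb, whose ranges overlapped with each other, and the range of Icam1 also overlapped with that of Itgb2. Below a gap, the other 7 members had means between 3.64 and 11.97 CPM per kb in Ct, and each neighbour in this order overlapped the next. In HF the order began with Itgb2, Itgam at 115 ± 25.2 and Icam1 at 41.2 ± 15.7 CPM per kb, and no neighbours of these 3 overlapped. In ECH the order after Itgb2 and Itgam was Amica1, Icam1 and Vcam1, with means of 63.6, 38.4 and 31.9 CPM per kb, but the values of all 3 were so spread that each overlapped its neighbour. Amica1 was the ninth of the 10 members in Ct and the lowest in HF, at 3.90 ± 4.01 and 3.42 ± 0.935 CPM per kb.

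**Figure D1:**
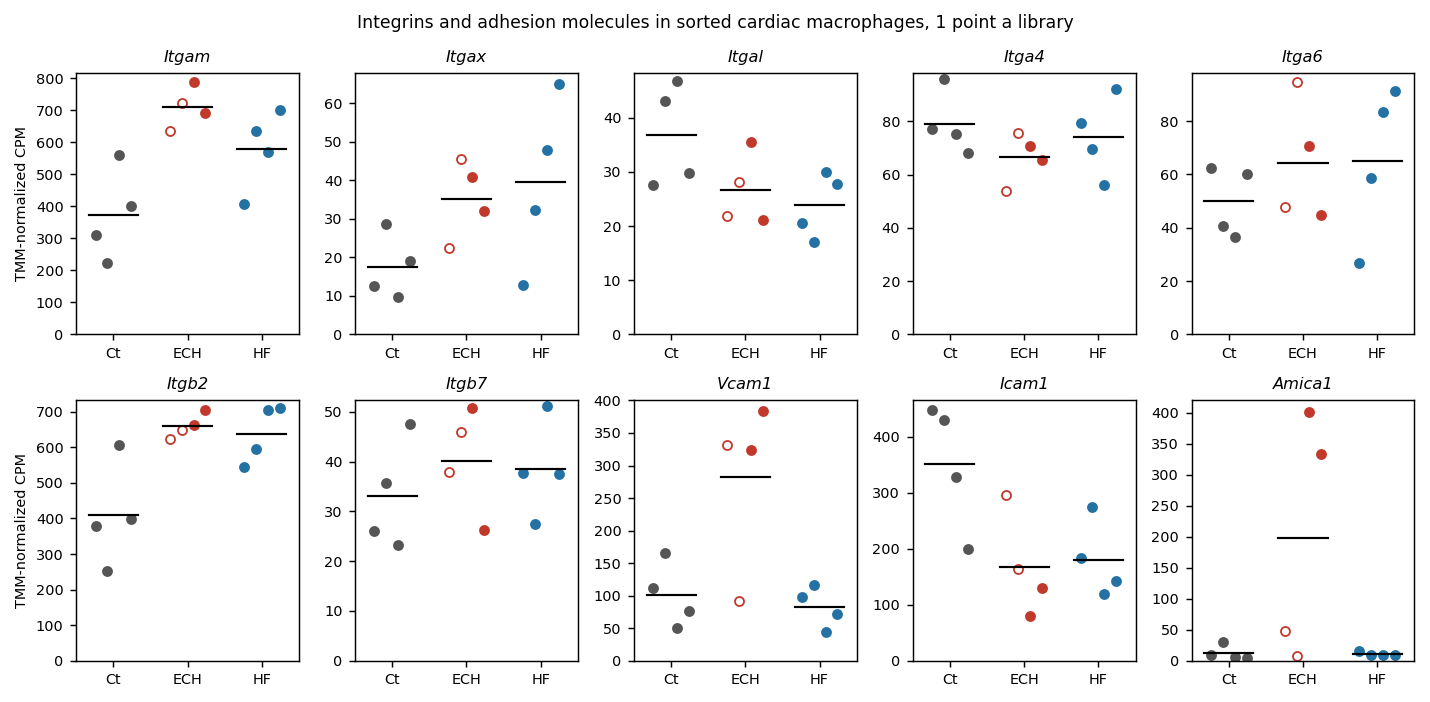
TMM-normalized CPM (linear axis) of the 10 genes in each of the 12 libraries, by group, with the group mean as a bar and with open circles for ECH libraries 1 and 2. The ECH points of Itgam and Itgb2 lie above every Ct point, whereas Amica1 is high in ECH libraries 3 and 4 and Vcam1 in every ECH library but number 2.

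Itgam, the α chain of Mac-1, a receptor for complement fragment iC3b, fibrinogen and ICAM1, lies on chromosome 7 of GRCm38 (128062640 to 128118491, plus strand), next to Itgax. Its levels were 309.5, 223, 559 and 402 CPM in Ct libraries 1 to 4, 636, 722, 787 and 690.1 CPM in the ECH libraries and 407, 636, 571 and 702 CPM in the HF libraries. Every ECH library was above every Ct library, and 3 of the 4 HF libraries were, with HF library 1 between Ct libraries 4 and 3. The log2 fold change of Itgam was 0.92 ± 0.24 (SE) in ECH against Ct (edgeR quasi-likelihood FDR 0.132) and 0.63 ± 0.24 in HF against Ct (FDR 0.239). Neither passed an FDR of 0.05 over all genes. Without Ct library 3, the highest of its group, the first became 1.19 with an FDR of 0.0387 (range over the alternatives 0.00879 to 0.940).

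Itgb2, the shared β chain, lies on chromosome 10 (77530252 to 77565708, plus strand). It stood at 377, 251, 608 and 397 CPM in Ct, 622, 649, 662 and 705 CPM in ECH and 545, 594, 704 and 711 CPM in HF. All ECH libraries again exceeded all Ct libraries, by a margin set by Ct library 3, which itself exceeded 2 of the HF libraries. Itgb2 differed by a log2 fold change of 0.69 ± 0.21 in ECH against Ct (FDR 0.198) and 0.65 ± 0.21 in HF against Ct (FDR 0.182). Without Ct library 3 these were 0.95 with an FDR of 0.0371 (range over the alternatives 0.0371 to 0.947) and 0.90 with an FDR of 0.0283 (range 0.0283 to 0.539). The ECH libraries were close together, with a coefficient of variation (CV) of 5.19% for Itgb2 and 8.93% for Itgam, against 36.2% and 38.6% in Ct. Summed CPM of 8 markers of Ly6C-high monocytes, which carry Mac-1, had medians of 3902 in Ct, 4874 in ECH and 5248 in HF. Among Ct libraries 1 to 4 these sums were 3777, 2265, 5614 and 4027 CPM, in the same order as Itgam and Itgb2. Among ECH libraries 1 to 4 they were 5387, 4646, 5102 and 4470 CPM, highest in library 1, where both genes were lowest. Among HF libraries 1 to 4 they were 4589, 5625, 4871 and 5648 CPM, in the order of Itgam but not of Itgb2. The part of such monocytes in the Itgam and Itgb2 values was not tested. The median CV of the 8648 genes with a mean of at least 10 CPM was 14.8% in ECH and 22.8% in Ct.

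The region before the start of Itgam is shown because the gene was high in every library and its protein served in the sort. The sequence is from RefSeq, build GRCm38.p6, chr7:128062390-128062639 on the plus strand, and capitals mark the letters GAGGAA on either strand, a core recognised by Ets-family factors such as the myeloid factor PU.1.
Itgam: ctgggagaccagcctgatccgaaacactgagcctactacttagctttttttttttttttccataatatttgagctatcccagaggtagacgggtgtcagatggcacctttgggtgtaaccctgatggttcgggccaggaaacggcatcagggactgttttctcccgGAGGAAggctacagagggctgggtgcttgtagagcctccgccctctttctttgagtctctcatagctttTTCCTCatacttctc
This window holds 2 such matches, and 23.3% of the 32851 RefSeq promoter windows of 250 bases hold at least 1, so the letters are common. Sequences were at hand for 6 members, and in those of Itgax, Itga4, Itgb7, Icam1 and Amica1 the letters were not present.

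Itgax encodes the α chain CD11c, used as a marker of dendritic cells and of some tissue macrophages, and lies on chromosome 7 (128129547 to 128150657, plus strand). Its levels were 12.5, 28.7, 9.64 and 19.1 CPM in Ct, 22.5, 45.5, 40.96 and 31.9 CPM in ECH and 12.9, 32.2, 47.8 and 64.99 CPM in HF. In ECH and in HF alike 3 libraries lay above all Ct libraries, and the lowest iso library, HF library 1, lay within the Ct range. The fitted log2 fold change was 1.01 ± 0.44 in ECH (FDR 0.385) and 1.17 ± 0.44 in HF (FDR 0.231), both against Ct. Without Ct library 2 and HF library 1, those of few genes detected, the second was 1.81 (edgeR FDR 0.0598, the range over the alternatives being 0.0598 to 0.572). The HF values spanned 5.05-fold, more than those of Itgax in Ct (2.98-fold) or ECH (2.03-fold). Summed CPM of 9 dendritic cell markers ranged from 208 to 359 among Ct libraries, 178 to 282 among ECH libraries and 254 to 317 among HF libraries, and the part of such cells in the Itgax values was not tested.

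Itgal, the α chain of LFA-1, which most lymphocytes carry, lies on chromosome 7 (127296260 to 127335138, plus strand). It measured 27.6, 43.1, 46.7 and 29.8 CPM in Ct, 21.9, 28.1, 35.6 and 21.2 CPM in ECH and 20.6, 17.01, 29.9 and 27.7 CPM in HF. Only 2 libraries of ECH and 2 of HF were below the lowest Ct library, so the groups overlapped. The log2 fold change of Itgal against Ct was −0.46 ± 0.25 in ECH (FDR 0.489) and −0.63 ± 0.25 in HF (FDR 0.247).

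The make-up of the α chains that can pair with β2 was then compared. Per kilobase, Itgam held 87.7% ± 6.60 (SD, n = 4) of the summed level of Itgam, Itgax, Itgal and Itgad in Ct, 92.6% ± 1.29 in ECH and 91.0% ± 2.62 in HF. The share of Itgal was 7.18% ± 2.94 in Ct, 2.64% ± 0.416 in ECH and 2.94% ± 0.811 in HF, and its lowest Ct value, 5.12%, was above its highest iso value, 3.61%. Itgam makes up most of this sum, so the Itgal share falls where Itgam rises, even at unchanged Itgal. The CPM of Itgal itself overlapped between the groups, and these genes were chosen on the same contrasts. Itgax held 5.12%, 4.75% and 6.10% on average, with overlapping groups, and Itgad held at most 0.0408% in any library. The summed level of these 4 α chains over that of Itgb2 was between 0.486 and 0.787 in all libraries, and the 3 groups overlapped.
The 4 Ct libraries, those with the highest Itgal shares, also had the 4 highest sums of B cell markers. All 8 B cell markers and all 12 T and NK cell markers had a lower fitted level in ECH and in HF than in Ct, none was at 0 in all libraries, and Ct library 2 held the highest share of Itgal (11.5%) together with the highest sums of both marker lists. Within groups the order was not always the same, since ECH library 3 held the highest Itgal share of its group (3.17%) and the lowest sums of both lists, and Ct library 4 the lowest share in Ct and the second-highest sums. Summed CPM of B cell markers ranged from 109 to 508 in Ct, from 37.8 to 88.0 in ECH and from 56.7 to 81.7 in HF, and that of T and NK cell markers from 33.1 to 135 in Ct, from 9.40 to 58.04 in ECH and from 21.9 to 50.99 in HF. The sums of 11 neutrophil markers, cells that carry CD11b and LFA-1, ranged from 358 to 1733 CPM in Ct, from 171 to 638 in ECH and from 127 to 1240.0 in HF. What part these cells have in the levels of Itgal, Itgam and Itgb2 was not tested.

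**Figure D2:**
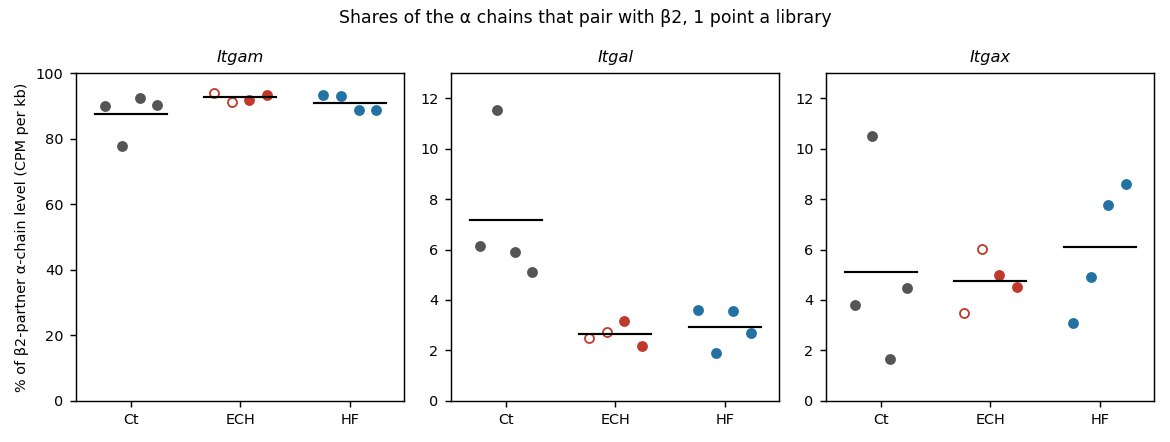
Share of Itgam, Itgal and Itgax (percent, linear axes that differ between panels) in the summed CPM per kb of the 4 α chains that pair with β2, 1 point a library with group means as bars and open circles for ECH libraries 1 and 2. The Itgal share is at least 5.12% in every Ct library and at most 3.61% in the 8 iso libraries.

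Itga4, the α chain of VLA-4 and of α4β7, lies on chromosome 2 (79255426 to 79333123, plus strand). Its values were 77.2, 95.99, 75.3 and 68.3 CPM in Ct, 54.00, 75.6, 70.8 and 65.5 CPM in ECH and 79.3, 69.6, 56.3 and 92.2 CPM in HF. The groups overlapped throughout, and Itga4 had among the smallest spreads of the members, with a CV of 14.9% in Ct, 14.0% in ECH and 20.4% in HF. The differences were −0.25 ± 0.17 in ECH and −0.09 ± 0.17 in HF on the log2 scale (FDR 0.609 and 0.840), and their 95% intervals ran from −0.62 to 0.11 and from −0.46 to 0.27. Cerkl, which overlaps Itga4 on the other strand, did not exceed 4.19 CPM, and no source states the strand setting of the counting.

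Itgb7, a β chain that guides lymphocytes to the gut wall when paired with α4, lies on chromosome 15 (102215995 to 102231944, minus strand). It stood at 25.98, 35.7, 23.3 and 47.5 CPM in Ct, 37.9, 45.96, 50.8 and 26.2 CPM in ECH and 37.7, 27.5, 51.1 and 37.4 CPM in HF, with groups that overlapped. ECH library 3 and HF library 3 lay above every Ct library. The fitted differences of Itgb7 were 0.28 ± 0.27 and 0.21 ± 0.27 on the log2 scale (FDR 0.732 and 0.751). Among the β partners of α4, Itgb7 held 7.06% ± 2.88 (SD, n = 4) of the summed level of Itgb1 and Itgb7 per kilobase in Ct, 6.999% ± 1.53 in ECH and 6.54% ± 1.67 in HF, and Itgb1 held at least 90.4% in every library. Madcam1, the gut ligand of α4β7, had no count in any library, which allows up to 0.0349 CPM in the shallowest one (3 counts, counting error only).

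Itga6, which pairs with β1 or β4 to bind laminin, lies on chromosome 2 (71745616 to 71858416, plus strand). Its levels were 62.3, 40.7, 36.7 and 60.1 CPM in Ct, 47.8, 94.5, 70.7 and 44.7 CPM in ECH and 26.7, 58.6, 83.4 and 91.3 CPM in HF. HF library 1 was the lowest of all 12 libraries while HF libraries 3 and 4 were above every Ct library, so the CV of Itga6 was 44.7% in HF against 26.4% in Ct. The log2 differences from Ct, 0.37 ± 0.35 in ECH and 0.38 ± 0.35 in HF, were near their SE (FDR 0.728 and 0.642).

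Vcam1, a ligand of α4β1 that some tissue macrophages also make, lies on chromosome 3 (116109949 to 116129688, minus strand). It reached 331, 91.6, 325 and 384 CPM in ECH libraries 1 to 4, against 112, 165, 49.8 and 75.8 CPM in Ct and 98.4, 117, 43.8 and 71.3 CPM in HF. Libraries 1, 3 and 4 of ECH were above every Ct and HF library, and ECH library 2 was inside both ranges. The log2 fold change of Vcam1 was 1.49 ± 0.45 against Ct (FDR 0.192) and 1.78 ± 0.45 against HF (FDR 0.491), whereas HF against Ct was −0.29 ± 0.44 (FDR 0.801) and −1.03 ± 0.75 with the library set as a covariate (edgeR FDR 0.569, range over the alternatives 0.569 to 0.981). Within set A, ECH libraries 1 and 2 differed from Ct by 1.07 ± 0.55 (edgeR FDR 0.947, range over the alternatives 0.0161 to 0.947), and within set B, ECH libraries 3 and 4 differed from HF by 2.10 ± 0.33 (edgeR FDR 0.0148, range over the alternatives 0.00952 to 1).

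Icam1, the main ligand of LFA-1 and Mac-1 and a gene that inflammatory signals induce in many cells, lies on chromosome 9 (21015985 to 21028817, plus strand). It stood at 448, 429.7, 328 and 199.8 CPM in Ct, 296, 164, 80.2 and 130.02 CPM in ECH and 183, 274, 119 and 142 CPM in HF. In each iso group 3 libraries were below every Ct library, and ECH library 1 and HF library 2 lay within the Ct range. The log2 fold change of Icam1 was −1.07 ± 0.38 in ECH (FDR 0.274) and −0.97 ± 0.38 in HF (FDR 0.243). With the library set as a covariate the second turned to 0.16 ± 0.55 (edgeR FDR 0.937, range over the alternatives 0.0872 to 0.937). Within set A it was −0.62 ± 0.37 in ECH libraries 1 and 2 against Ct (edgeR FDR 0.951, range 0.0647 to 0.951).

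Summed CPM of 9 endothelial markers, cells for which both ligands are best known, stayed between 9.93 and 34.1 in all libraries, with 12.4 to 25.6 in Ct, 15.7 to 34.1 in ECH and 9.93 to 24.3 among HF libraries. The sums of 7 fibroblast markers were higher, from 29.3 to 192 CPM in Ct, from 90.2 to 468 in ECH and from 81.1 to 248 in HF, with none at 0 in all libraries. The part of endothelial cells and fibroblasts in the Vcam1 and Icam1 values was not tested.
The stretch before the start of Icam1 is shown because it holds 1 match to GGAAATTCC, a motif of the NF-κB type that was searched on both strands and is in capitals. It is from RefSeq, build GRCm38.p6, chr9:21015690-21015939, plus strand.
Icam1: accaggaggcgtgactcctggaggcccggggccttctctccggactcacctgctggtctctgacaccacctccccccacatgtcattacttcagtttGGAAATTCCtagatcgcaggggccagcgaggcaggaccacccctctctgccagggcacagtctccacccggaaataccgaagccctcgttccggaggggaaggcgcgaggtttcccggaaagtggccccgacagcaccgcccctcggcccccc
Of all 32851 promoter windows of this length 0.286% hold this motif, and of the 6 members with a sequence only Icam1 does.

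Amica1 encodes JAML, a junctional adhesion molecule-like protein of granulocytes, monocytes and some T cells that binds CXADR, and lies on chromosome 9 (45079183 to 45108534, plus strand, under the name Jaml). Its levels were 8.60, 30.6, 5.35 and 3.94 CPM in Ct libraries 1 to 4, 47.6, 8.25, 401 and 334 CPM in ECH libraries 1 to 4 and 14.9, 8.94, 8.91 and 9.70 CPM in HF libraries 1 to 4. ECH libraries 3 and 4 stood far above all others, ECH library 1 was above every Ct and HF library, and ECH library 2 was within the Ct range and below every HF library. These were 44695 and 38635 raw counts in ECH libraries 3 and 4 against at most 4806 in any other library, so the counting error of reads alone is small beside the spread. Error from making the libraries was not measured. Values within ECH spanned 48.6-fold, with a CV of 100.5%, against 103% in Ct and 27.3% in HF.
The fitted log2 fold change of Amica1 was 4.03 ± 0.99 in ECH against Ct (edgeR FDR 0.103) and 4.22 ± 0.998 against HF (FDR 0.491), and it was −0.19 ± 0.88 in HF against Ct (FDR 0.944). With the library set as a covariate HF against Ct became −3.91 ± 1.11 (edgeR FDR 0.103, range over the alternatives 0.103 to 0.990), and without Ct library 2 it turned to 0.83 (FDR 0.713). The covariate value rests on the gap of ECH libraries 3 and 4 from ECH libraries 1 and 2. Leaving out 1 library gave log2 fold changes of ECH against Ct between 3.43 (without ECH library 3, FDR 0.310) and 5.05 (without Ct library 2, FDR 0.0848), and 1 of these fits, without ECH library 2, passed an FDR of 0.05, at 4.43 with an FDR of 0.0299 (range over the alternatives 0.00291 to 0.951). In set A the difference of ECH libraries 1 and 2 from Ct was 1.205 ± 0.88 (edgeR FDR 0.951), and in set B that of libraries 3 and 4 from HF was 5.11 ± 0.23 (edgeR FDR 0.000755, range 0.000755 to 1). ECH libraries 3 and 4 carry the same first part of a code in their labels, which no source explains, as do Ct libraries 1 and 2, Ct libraries 3 and 4, and HF libraries 1 and 2, and the part of this in the result was not tested.
In ECH libraries 3 and 4, T and NK cell markers summed to 9.40 and 22.03 CPM, neutrophil markers to 171 and 638 CPM and Ly6C-high monocyte markers to 5102 and 4470 CPM. In the other libraries these sums ranged from 21.9 to 135, from 127 to 1733 and from 2265 to 5648 CPM, and the part of these cells in the Amica1 values was not tested. Gm10684, which overlaps Amica1 on the other strand, was at most 0.138 CPM, and Cxadr, its binding partner, at most 0.740 CPM. The 250 bases before the start of Amica1, the member with the largest difference, are chr9:45078933-45079182 of GRCm38.p6 on the plus strand, from RefSeq.
Amica1: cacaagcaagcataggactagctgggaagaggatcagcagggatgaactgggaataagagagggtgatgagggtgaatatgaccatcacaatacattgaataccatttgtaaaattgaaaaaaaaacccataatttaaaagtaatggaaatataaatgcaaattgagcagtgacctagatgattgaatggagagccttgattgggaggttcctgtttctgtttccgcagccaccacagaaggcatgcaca
They are in lower case throughout, since none of the motifs searched (GAGGAA, GGAAATTCC, and TGACG, a core of cyclic AMP response elements found in 17.8% of windows) occurs in them on either strand. TGACG was absent from the other 5 windows as well.

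**Figure D3:**
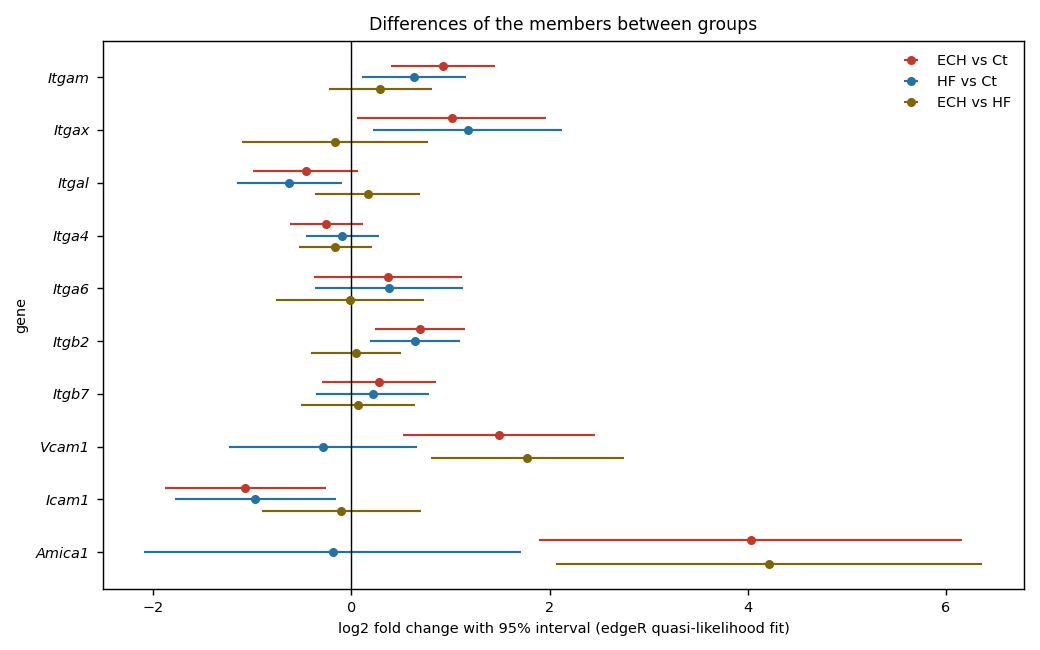
Log2 fold changes of the 10 genes with 95% intervals from the edgeR quasi-likelihood fit (horizontal axis) in ECH against Ct, HF against Ct and ECH against HF. ECH against HF lies between −0.16 and 0.29 for 8 genes and is 1.78 for Vcam1 and 4.22 for Amica1.

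Set against all genes, 0 of the 10 members were called (FDR under 0.05 and at least 2-fold, edgeR) in ECH against Ct, where 0.356% of all genes tested were, 0 in HF against Ct, where 0.377% were, and 0 in ECH against HF, where 0% were. At an unadjusted p under 0.05, 5 members were higher in ECH than in Ct (Itgam, Itgax, Itgb2, Vcam1 and Amica1) and Icam1 was lower, with 6.03% of all genes higher and 5.89% lower. In HF against Ct, Itgam, Itgax and Itgb2 were higher and Itgal and Icam1 lower at that level, with 7.35% and 8.72% of all genes. In ECH against HF, Vcam1 and Amica1 were higher and no member was lower, with 5.17% and 2.81%. ECH did not overlap with Ct for 2 members, Itgam and Itgb2, both higher, against 4.33% of all genes that were higher without overlap and 3.64% that were lower. No member was free of overlap in HF against Ct (4.59% and 4.45% of all genes) or in ECH against HF (3.56% and 3.36%). Nothing is read from these shares, since the members were chosen on the same contrasts.
The counts depended on the tool. By the same rule DESeq2 called 2 members in ECH against Ct and 2 in ECH against HF (Vcam1 and Amica1 in both) and 0 in HF against Ct, beside 1.74%, 0.323% and 2.4% of all genes it gave an FDR. The limma-voom test called 0 members in each, beside 0.575% of all genes in ECH against Ct, 0.89% in HF against Ct and 0% in ECH against HF. By an FDR under 0.05 alone, DESeq2 gave 4 members in ECH against Ct (Itgam, Itgb2, Vcam1 and Amica1), 1 in HF against Ct (Itgb2) and 2 in ECH against HF (Vcam1 and Amica1), beside 3.37%, 5.1% and 0.481% of all genes, and limma-voom gave 1 (Itgam), 1 (Itgb2) and 0, beside 0.945%, 2.1% and 0%. The median log2 fold change of the members was 0.53 in ECH against Ct, 0.06 in HF against Ct and 0.06 in ECH against HF, beside 0.01, −0.01 and 0.02 over all genes tested. Both iso groups were set against the same Ct libraries, so their values are not independent of each other.

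Each pattern over the 12 libraries was set beside those of 8638 other genes with a mean of at least 10 CPM, by the root mean square (RMS) difference of log2 CPM after each gene was centred on its mean (0.1 CPM added), where a lower value means more alike. For Itgam the nearest were Emilin2 at 0.19 and Hif1a at 0.20, and Itgb2, the nearest of the members, stood at 0.19. Itgb2 itself was nearest to Abcb8 at 0.16 and Bre at 0.17. Icam1 lay nearest to Irf1 at 0.21, with 703, 691, 485, 412, 535, 343, 157, 306, 393, 467, 254 and 233 CPM in the libraries in the order Ct, ECH and HF, and next to Nfkbiz at 0.26. Irf1 encodes an interferon-regulatory transcription factor, and like Icam1 it was highest in Ct libraries 1 and 2 and lowest in ECH library 3.
The nearest to Itga4 were Tgds at 0.10 and Kdm3b at 0.15, those to Itga6 Prps2 at 0.20 and Sema4d at 0.26, and those to Itgal 5830417I10Rik at 0.21 and Tbck at 0.26. For Itgb7 they were Arhgap27 at 0.24 and Ndufaf1 at 0.25, and for Itgax Mcm7 at 0.43 and Aim1 at 0.44. For the members that varied most, Vcam1 and Amica1, the RMS differences were larger, as this measure grows with the member's own spread. Ciart and Gdpd1 stood at 0.51 from Vcam1, and Pik3ip1 and Ttc39c at 1.03 and 1.14 from Amica1, while Vcam1 and Amica1 themselves varied by an RMS of 1.01 and 2.10 around their means. Pik3ip1, which restrains PI3 kinase, held 113 and 154 CPM in ECH libraries 3 and 4 and at most 28.4 CPM in the other libraries.

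The other genes of the pathway were taken from lists chosen with earlier results of these data known. Of 19 other integrin chains 16 were tested and edgeR called 0 in each comparison. At an unadjusted p under 0.05, Itga5 and Itgb5 were higher in ECH than in Ct and in HF than in Ct, and Itga3, Itga7 and Itgae, at most 6.39 CPM in any library, were lower in HF than in Ct. Of all genes, 6.03% were higher and 5.89% lower at that level in ECH against Ct, and 7.35% and 8.72% in HF against Ct. DESeq2 called 0 in ECH against Ct, 2 in HF against Ct (Itga3 and Itga7) and 1 in ECH against HF (Itga7), and limma-voom called 0, 1 (Itga3) and 0. Over all genes DESeq2 called 1.74%, 2.4% and 0.323% in the same order, and limma-voom 0.575%, 0.89% and 0%. Both Itga3 and Itga7 had no count in any HF library, so no fold is given. Itga11, the next by p in ECH against Ct, had group means of at most 0.424 CPM. Itga5, the α chain of the fibronectin receptor, measured 80.03, 61.5, 77.4 and 55.1 CPM in Ct, 114, 122, 94.7 and 98.5 CPM in ECH and 93.8, 106, 95.95 and 101 CPM in HF. Its 8 iso libraries were all above its 4 Ct libraries, with a log2 fold change of 0.65 ± 0.14 in ECH (FDR 0.0728) and 0.53 ± 0.14 in HF (FDR 0.123). Itgb5, which pairs with αv, was at 341 ± 60.9 CPM (SD, n = 4) in Ct, 518 ± 76.8 in ECH and 454 ± 36.2 in HF (log2 fold change 0.60 and 0.41, FDR 0.107 and 0.219). By level per kilobase the list was led by Itgb1 at 186 CPM per kb over all libraries, close to Itgb2, then Itgb5 at 123, Itga5 at 18.6, Itga9 at 14.0, Itgav at 6.99 and Itga8 at 0.491.

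Of 34 other adhesion molecules 32 were tested and edgeR called 0. In ECH against Ct 1 was higher and 3 were lower at an unadjusted p under 0.05, in HF against Ct 2 and 4, and in ECH against HF 1 and 2. Over all genes these shares were 6.03% and 5.89%, 7.35% and 8.72%, and 5.17% and 2.81%. DESeq2 called 1 in ECH against Ct and limma-voom 0, beside 1.74% and 0.575% of all genes. The highest of the list per kilobase were Cd48 at 327, Selplg at 75.5, Cd47 at 67.8, Cd44 at 43.7, F11r and Ceacam1, at 13.04 and 7.24 CPM per kb, and their log2 fold changes against Ct lay between −0.43 and 0.59. Cd226, a receptor of natural killer and T cells, was at 5.31 ± 1.18 CPM in Ct and 10.4 ± 1.56 CPM in HF (FDR 0.189), and Ncam1 had group means of at most 0.381 CPM.

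Of 32 genes of integrin activation and linkage 31 were tested. Cyth1, which encodes cytohesin-1, a protein that binds the cytoplasmic tail of β2, was the 1 gene that edgeR and limma-voom called in ECH against Ct, where DESeq2 called 2 (Cyth1 and Skap1), and edgeR called 0 in HF against Ct. Over all genes edgeR called 0.356%, limma-voom 0.575% and DESeq2 1.74% in ECH against Ct, and edgeR 0.377% in HF against Ct. At an unadjusted p under 0.05, 5 were higher and 5 lower in the first (6.03% and 5.89% of all genes) and 3 and 5 in the second (7.35% and 8.72% of all genes). In HF against Ct DESeq2 called 1 (Skap1) and limma-voom 1 (Parvg), beside 2.4% and 0.89% of all genes. The Cyth1 levels were 104, 105, 107 and 95.9 CPM in Ct, 216, 223, 263 and 278 CPM in ECH and 163, 175, 181 and 157 CPM in HF, so that no group overlapped with another. Cyth1 rose in ECH by 1.25 ± 0.12 on the log2 scale (edgeR FDR 0.000498) and in HF by 0.71 ± 0.12 (FDR 0.0192), the second below 2-fold. In set A alone the first was 1.08 (edgeR FDR 0.151, range over the alternatives 1.61e-23 to 0.151), and with the library set as a covariate the second was 0.41 (edgeR FDR 0.250, range 2.51e-07 to 0.250). Leaving out any 1 of Ct libraries 1 and 4 and HF libraries 2 and 3 brought the HF result to an FDR between 0.0559 and 0.0811. Among the most abundant of the list, Rap1b, Ilk, Lyn, Rac2 and Rap1a stood at 95.5 to 351 CPM per kb and had log2 fold changes between −0.39 and 0.19 against Ct.

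Of 23 soluble and matrix ligands 17 were tested, and edgeR called 2 in ECH against Ct (Spp1 and Thbs1) and 2 in HF against Ct (Spp1 and Fn1), all higher, beside 0.356% and 0.377% of all genes. At an unadjusted p under 0.05, 5 were higher and 0 lower in ECH against Ct, and 3 and 0 in HF against Ct. Over all genes these shares were 6.03% and 5.89%, and 7.35% and 8.72%. Nothing is read from these counts, since the list was chosen with results known. DESeq2 called Spp1, Thbs1 and Fn1 in both comparisons, and limma-voom called the same genes as edgeR. Over all genes DESeq2 called 1.74% and 2.4%, and limma-voom 0.575% and 0.89%. Spp1, osteopontin, a ligand of αv, α4 and α9 integrins, stood at 64.9, 67.5, 18.7 and 45.4 CPM in Ct, 292, 948, 1121 and 328 CPM in ECH and 349, 487, 749 and 1099 CPM in HF. It rose in both iso groups, by 3.78 ± 0.56 in ECH (edgeR FDR 0.0139) and 3.77 ± 0.56 in HF (FDR 0.0123). The FDR in ECH was 0.0628 without Ct library 1, 0.0638 in the fit of ECH and Ct alone and 0.197 in set A. The FDR in HF was 0.0504 without Ct library 4 and 0.0796 with the library set as a covariate (ranges over the alternatives 4.33e-09 to 0.197 in ECH and 3.11e-09 to 0.0796 in HF). Thbs1, thrombospondin-1, which binds CD47 and several integrins, rose in ECH from 91.6, 94.4, 51.8 and 53.04 CPM to 232, 329, 343 and 216 CPM (log2 fold change 1.94 ± 0.32, edgeR FDR 0.0202), a call lost with the library set as a covariate (FDR 0.0960), in set A (0.197) and without Ct library 1, Ct library 4 or ECH library 3 (FDR 0.0645, 0.0729 and 0.0797, range over the alternatives 2.22e-07 to 0.197). In HF Thbs1 stood at 86.8, 144, 126 and 259.9 CPM, which overlapped with Ct, with a log2 fold change of 1.08 ± 0.32 (edgeR FDR 0.144, range over the alternatives 0.0169 to 0.393). Fn1, fibronectin, a ligand of α5β1 and α4β1, rose in HF by 1.84 ± 0.37 (edgeR FDR 0.0467) and kept an FDR under 0.05 in 7 of 21 alternatives (range 1.87e-05 to 0.319). The alternatives that lost it included the library set as a covariate (FDR 0.319) and leaving out Ct library 1, 2 or 4, any ECH library, or HF library 2, 3 or 4. In ECH Fn1 had a log2 fold change of 1.54 ± 0.36 (FDR 0.0950). Cyr61, Mfge8 and Emilin1, at 83.9, 13.8 and 8.09 CPM per kb the other abundant ligands, were not called. The fibroblast marker sums given with Vcam1 had medians of 73.1 CPM in Ct, 199 in ECH and 150.5 in HF. Summed CPM of 6 platelet and megakaryocyte markers, of which 3 passed the filter on low counts, ranged from 8.97 to 19.8 in Ct. These sums ranged from 6.83 to 68.6 CPM in ECH and from 46.5 to 93.6 CPM in HF. The part of fibroblasts and of platelets in the Fn1 and Thbs1 values was not tested.

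**Figure D4:**
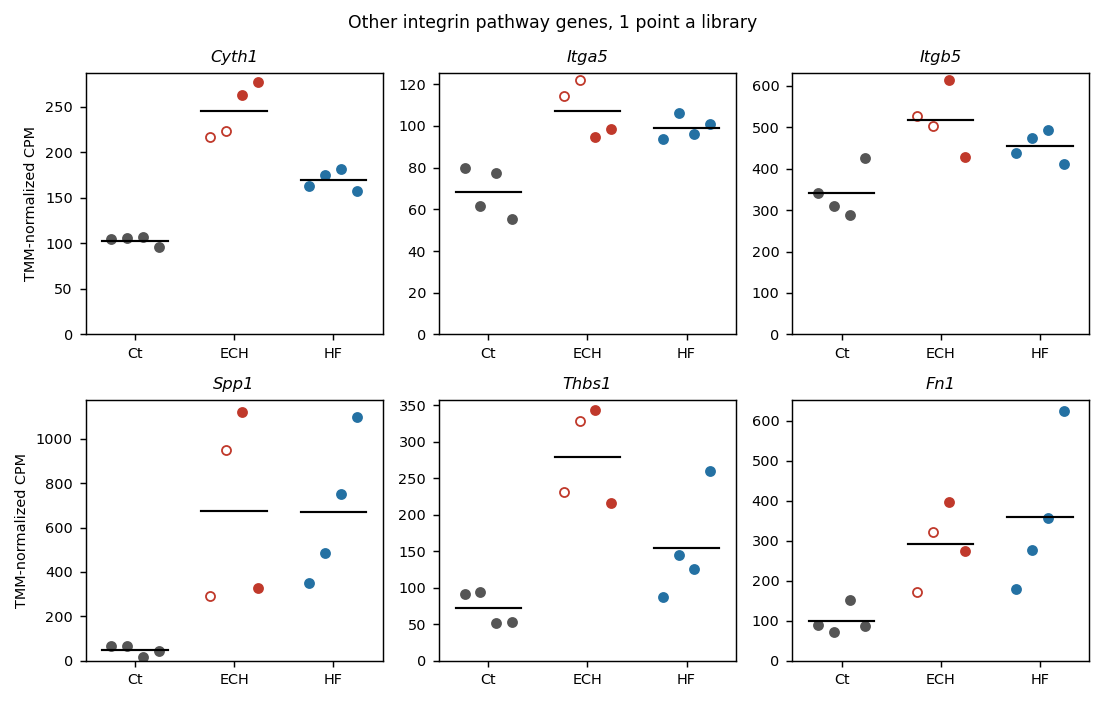
TMM-normalized CPM (linear axes) of Cyth1, Itga5, Itgb5, Spp1, Thbs1 and Fn1 in each library by group, with group means as bars and open circles for ECH libraries 1 and 2. For Cyth1 the 3 groups are separate, and for Itga5, Spp1 and Fn1 the iso libraries are all above the Ct libraries.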

How the data were processed

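CD14+/CD64+ cardiac Mφ of 12 mice were sequenced from SMART-Seq v4 cDNA, 1 library per mouse. The authors used Trimmomatic for trimming, TopHat2 for alignment to mm10 (GRCm38) and featureCounts for counting, and the files as deposited hold raw counts of 24445 gene symbols. Their versions, the annotation and the strand setting were not given in the sources used here. Samples were grouped by their labels.

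The analysis ran in R 4.3.3 with edgeR 4.0.16 (filterByExpr by group, TMM, quasi-likelihood test), in 1 model of all 12 libraries with 1 mean per group, and p-values were adjusted over 14608 genes by Benjamini-Hochberg (FDR). The biological coefficient of variation was 60.8%. Calls needed an FDR under 0.05 and a change of at least 2-fold. The SE of a fold change was its size over the root of the F statistic. Positions and exon lengths are from GENCODE M21 (GRCm38). The code was tested on simulated data, and matplotlib 3.10.9 drew the figures.

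The members, gene lists and marker lists were chosen with earlier results of these data known. Beside the 10 members, the genes named were the 6 of each list with the highest CPM per kb, every gene called or, where none was, the 3 with the smallest p in each comparison, and the 2 nearest in pattern to each member. Of these genes, 2 are not reported here. Cxadr, Madcam1, Cerkl, Gm10684, Skap1 and Parvg were named after their values were seen. Alternatives were RLE scaling, other count filters, DESeq2 1.42.0, limma-voom (limma 3.58.1), fits of 2 groups only, a block for the replicate number, the inferred library set (as a covariate, or each alone), and libraries left out.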

Additional observations from a re-analysis of the deposited data

Results flagged for a closer look

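Of the 30 groups of 4 libraries examined (10 genes in 3 groups), 1 held a library far from its others. Amica1 in HF library 1 stood at 14.9 CPM, and the nearest of the other HF libraries was at 9.70 CPM. The gap to that neighbour was 0.870 of the whole range of the group, above Dixon's 95% critical value for 4 values. Chance alone sets apart about 1 in 20 groups. HF library 1 was also the library with the fewest genes detected, 13600, and the part of this in the Amica1 value was not tested.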

How the results depend on the processing

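The 10 members in 3 comparisons gave 30 results and 650 values under the alternatives, of which 609 kept their direction and their side of an FDR of 0.05, 17 moved to an FDR under 0.05 and 24 turned in sign. Over all genes, edgeR called 52 in ECH against Ct, 55 in HF against Ct and 0 in ECH against HF. DESeq2 called 248, 336 and 47, and limma-voom 84 and 130 in the first 2. In ECH against Ct, only 8 were called in the fit of those groups alone, 22 with the set as covariate and 1 in set A. The covariate gave 208 in HF against Ct and 272 in ECH against HF, and set B alone gave 370. Members with an FDR under 0.05 numbered 4, 1 and 2 with DESeq2 in the order given, 1 and 1 with limma-voom in both comparisons with Ct, and 2 in ECH against HF both with the covariate and in set B. Leaving out 1 library gave 11 (without Ct library 1) to 95 (without Ct library 3) genes in ECH against Ct, 15 to 103 in HF against Ct on leaving out the same libraries, and 0 in ECH against HF, with 0 to 2, 0 to 1 and 0 members. In ECH against Ct it also gave 26 without Ct library 4, 17 without ECH library 3 and 27 without ECH library 4. In HF against Ct it gave 25 without Ct library 4, 36 without ECH library 1, 33, 18, 19 and 25 without HF libraries 1 to 4.

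Deviations from the group mean correlated between −0.18 and 0.13 for libraries with the same replicate number. Libraries of different number were not compared, so these values do not settle whether the numbers pair the libraries. With the number as a block, 22 genes were called in ECH against Ct and 18 in HF against Ct, and no member passed an FDR of 0.05. In that fit Spp1 and Thbs1 in ECH against Ct and Spp1, Fn1 and Cyth1 in HF against Ct had edgeR FDRs between 0.0566 and 0.0697. Itga6 in ECH against HF turned to 0.034 on the log2 scale.

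The sign turned mostly where a difference was near 0. With the covariate, HF against Ct moved to −1.03 for Vcam1 and −3.91 for Amica1, and Icam1 in ECH against HF to −0.77. In HF against Ct, Icam1 turned to 0.16 with the covariate, and Amica1 to 0.53 with limma-voom, 0.62 without both libraries of few genes and 0.83 without Ct library 2, while leaving out 1 library gave ranges of −0.21 to 0.024 for Itga4, −0.51 to 0.061 for Vcam1 and −0.48 to 0.83 for Amica1. In ECH against HF, Itgb2 turned to −0.011 with limma-voom and −0.026 without both libraries. There, leaving out 1 library gave ranges of −0.46 to 0.19 for Itgax, −0.0060 to 0.28 for Itgal, −0.27 to 0.20 for Itga6, −0.023 to 0.10 for Itgb2, −0.067 to 0.22 for Itgb7 and −0.53 to 0.18 for Icam1. The cause was not tested. RLE scaling moved the median of all genes by less than 0.01. The lowest count of any member in any library was 407, of Amica1 in Ct library 4, so the counting error of reads alone was small beside the spread between libraries. Error from making the libraries was not measured.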
